A study of Mus musculus with 48 samples.

Results

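Melanomas from iNOS KO mice given anti-PD-1 were compared with tumors of untreated iNOS KO mice at day 7. The members were chosen by the sample titles and are 6 of the 48 tumors of the series, 3 treated (anti-PD-1 tumors 1, 2 and 3) and 3 untreated (untreated tumors 1, 2 and 4). All 6 tumors grew from B16-D5 cells, a poorly immunogenic subclone of the mouse B16 melanoma line, injected under the skin of the flank 8 days before therapy. Host mice arrived aged 4 weeks and were kept for another 2 before use. iNOS KO mice lack inducible nitric oxide synthase, while the injected cells were not described as lacking it, so each tumor mixes melanoma cells with host cells of another genotype. Treated mice received 250 µg of anti-PD-1 in 200 µL on days 0 and 3, and untreated mice received nothing. Tumors of iNOS KO mice given the same amount of IgG, and untreated and anti-PD-1-treated tumors of WT (C57BL/6J) mice, 3 each, served as further groups. The titles give no time for these tumors, and day 7 comes from the study's timeline.

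PD-1 is an inhibitory receptor of activated T cells, and its blockade releases T cells that can then secrete IFN-γ. IFN-γ acts in part through IRF1 and switches on immunity-related GTPases, guanylate-binding proteins, the chemokines CXCL9 and CXCL10, the immunoproteasome, MHC class I and the PD-1 ligand PD-L1 (Cd274). iNOS (Nos2) makes nitric oxide from arginine and is itself induced by IFN-γ in macrophages.

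The libraries held between 23267834 and 40501207 counts on genes in the 6 tumors. Values per tumor are CPM, counts scaled to a common library size by TMM, and 3 counts correspond to 0.0778 to 0.123 CPM. Untreated tumor 1 had 925 CPM on 1781 olfactory, vomeronasal and taste receptor genes, against 83.4 and 71.5 CPM in untreated tumors 2 and 4 and 18.1 to 22.7 CPM in the anti-PD-1 tumors, so the level on these genes moved with the treatment. The melanocyte genes Dct and Pmel were between 5513 and 8776 CPM and between 2330 and 3133 CPM in the 6 tumors. Ptprc, the pan-leukocyte gene, lay between 11.1 and 34.3 CPM. The genotype field of the labels reads WT for all 6 tumors although the titles give KO, and only 1 of the 6 treatment fields matches its title. Nos2 does not settle the genotype, since the melanoma cells could express it. Its level was 4.21, 2.41 and 4.98 CPM in untreated tumors 1, 2 and 4 and 5.40, 1.15 and 1.3 CPM in anti-PD-1 tumors 1, 2 and 3. The groups overlapped, and the log2 fold change was −0.56 ± 0.58 (SE, n = 3 per group, edgeR adjusted p = 0.572).

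With anti-PD-1, genes induced by IFN-γ and several genes of general cell function were at lower RNA levels than without treatment. Of 30837 genes tested with edgeR's quasi-likelihood test, 13 fell at an adjusted p under 0.05 (0.0422% of the genes tested) and 0 rose. At an unadjusted p under 0.05, 4427 genes were lower (14.4%) and 896 were higher (2.91%). The tumors of the treatments did not overlap, whatever the p, for 2610 lower genes (8.46%) and 1714 higher genes (5.56%). Of the 4427 lower genes, 60.4% averaged under 0.1 CPM in the 5 tumors other than untreated tumor 1, against 30.9% of all genes tested, and the median log2 fold change of all genes was −0.44. Among the 15414 genes with a mean of at least 1 CPM the median was 0.06, with 1248 genes lower (8.1%) and 868 higher (5.63%). The count of 13 was 0 without anti-PD-1 tumor 1 or without anti-PD-1 tumor 2, 1 without untreated tumor 1, 114 without anti-PD-1 tumor 3, 22 without untreated tumor 2 and 37 without untreated tumor 4, and it was 741 with DESeq2, 70 of them higher.

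**Figure D1:**
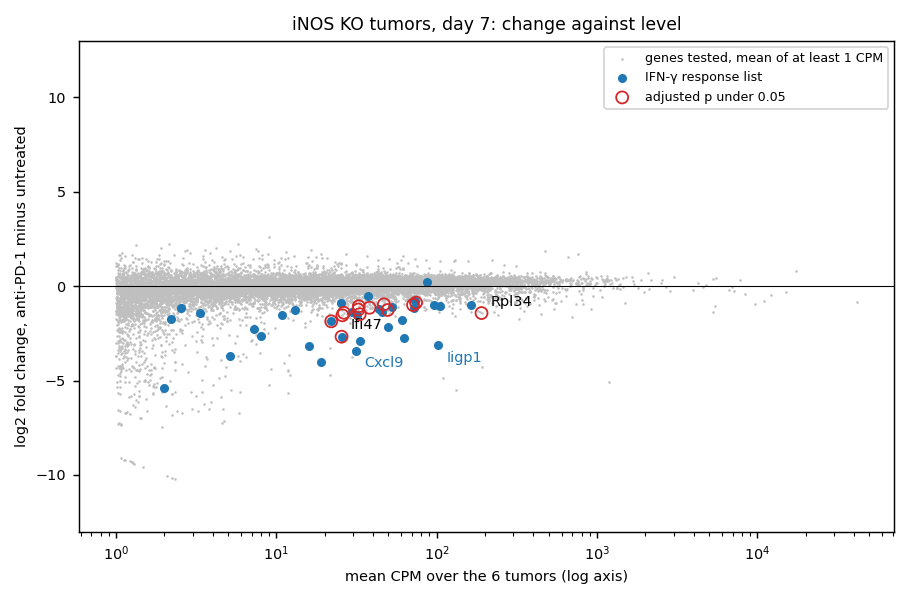
Log2 fold change (anti-PD-1 minus untreated) against the mean CPM of the 6 iNOS KO tumors, for the 15414 genes with a mean of at least 1 CPM. Blue points are genes of the IFN-γ response list and red circles are the genes with an adjusted p under 0.05, all of which lie below 0. The labelled genes are Ifi47, Rpl34, Cxcl9 and Iigp1.

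The strongest call was Ifi47, an IFN-γ-inducible GTPase of the immunity-related family on chromosome 11 (GRCm38, 49076587 to 49096974, plus strand). Its level was 38.2, 24.7 and 69.3 CPM in untreated tumors 1, 2 and 4 and 6.58, 6.44 and 7.67 CPM in anti-PD-1 tumors 1, 2 and 3. Every anti-PD-1 tumor lay below every untreated one, with a 6.39-fold difference (log2 −2.68 ± 0.38, SE, n = 3 per group, edgeR adjusted p = 0.017). Ifi47 remained the only call of the 13 with the replicate number as a block (adjusted p = 0.0298), without untreated tumor 1 (adjusted p = 0.0217) and with the receptor level as a covariate (adjusted p = 0.043). The receptor gene Olfr56 overlaps Ifi47 on the same strand and held 568 counts in the 6 tumors against 5008 for Ifi47, so the split of their reads rests on the counting.

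Components of protein breakdown for antigen presentation were also called. Psmb9, an immunoproteasome subunit induced by IFN-γ, had 36.5, 19.7 and 47.1 CPM in untreated tumors 1, 2 and 4 and 9.26, 8.28 and 10.9 CPM in anti-PD-1 tumors 1, 2 and 3. The groups did not overlap (log2 −1.86 ± 0.32, SE, n = 3 per group, edgeR adjusted p = 0.034). Psme2, a subunit of the IFN-γ-inducible proteasome activator PA28, averaged 45.5 ± 8.34 CPM (SD, n = 3) in untreated and 19.3 ± 1.52 CPM in anti-PD-1 tumors (log2 −1.24, edgeR adjusted p = 0.017). Psma3, a constitutive subunit of the 20S core, averaged 96.1 ± 9.56 and 52.5 ± 4.65 CPM (log2 −0.87, edgeR adjusted p = 0.0412). Psmb9 overlaps Tap1 on the opposite strand, and Psme2 has 1 annotated copy, so their counts are less certain.

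The other genes called have varied roles. Rpl34, a protein of the large ribosomal subunit, had 346, 315 and 170 CPM in untreated and 95.4, 88.9 and 126 CPM in anti-PD-1 tumors (log2 −1.42, edgeR adjusted p = 0.0309), and has 2 annotated copies that could share its reads. Sptssa, a small subunit of serine palmitoyltransferase, fell by 1.41 on the log2 scale and Zfas1, a noncoding host of small nucleolar RNAs, by 1.49, where Znfx1 lies on the opposite strand. Genes of 3 mitochondrial proteins fell: Immp1l, an inner membrane peptidase (log2 −1.54), Dnajc15, a co-chaperone (log2 −1.26), and Ndufa7, a subunit of complex I (log2 −1.14). Gtf2a2, the small subunit of transcription factor TFIIA, Rnf7, a RING component of cullin ubiquitin ligases, and Mzt1, which binds the γ-tubulin complex, had log2 fold changes of −1.07, −0.998 and −0.96. In each of the 13 genes the tumors of the treatments did not overlap, as for 8.46% of all genes tested on the lower side. The 13 were called by p in the same tumors, so this is no separate evidence. Mzt1, Psma3 and Zfas1 fall outside the rule for naming genes and are given as the rest of the 13.

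IFN-γ response genes were lower as a group in anti-PD-1 tumors. All 34 listed genes were tested, and 29 were lower and 0 higher at an unadjusted p under 0.05, against 14.4% lower over all genes. By edgeR 2 passed the adjusted threshold (Ifi47 and Psmb9), 27 with only these groups fitted, 28 with no filter, 10 without untreated tumor 2 and 0 without anti-PD-1 tumor 1 or 2, and DESeq2 called 23. The edgeR count was 1 without untreated tumor 1 or 4. The median log2 fold change was −1.64 against −0.44 over all genes tested. Over the alternatives the median lay between −1.26, without untreated tumor 4, and −1.86, without untreated tumor 2. In 30 of the 34 genes every anti-PD-1 tumor lay below every untreated one, as in 8.46% of all genes tested. The summed level of the list was 1575, 1265 and 2982 CPM in untreated tumors 1, 2 and 4 and 736, 771 and 718 CPM in anti-PD-1 tumors 1, 2 and 3. The untreated tumors differed more among themselves than the treated ones, and untreated tumor 4 was the highest. Fewer cells that express a gene and less RNA per cell cannot be told apart in whole tumors.

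The genes of this list that missed the threshold are given by their levels. Cxcl9, a chemokine that draws activated T cells, had 41.7, 25.2 and 104 CPM in untreated tumors 1, 2 and 4 and 3.21, 8.21 and 4.72 CPM in anti-PD-1 tumors 1, 2 and 3 (log2 −3.41 ± 0.62, SE, n = 3 per group, edgeR adjusted p = 0.0539). Iigp1, another immunity-related GTPase, had 166, 71.5 and 310 CPM in untreated and 15.3, 23.5 and 23.6 CPM in anti-PD-1 tumors (log2 −3.14 ± 0.61, edgeR adjusted p = 0.0572). Gbp2, a guanylate-binding protein, had 34.5, 30.2 and 112 CPM and 7.10, 10.08 and 6.14 CPM (log2 −2.93, edgeR adjusted p = 0.0806). Anti-PD-1 tumors were below all untreated ones for each of these 3 genes, which were chosen for the text after their values were seen, as were Tgtp2, Igtp and Psmb8 below. Cxcl10, also a T cell chemokine and the most abundant gene of the list, had 168, 161 and 326 CPM and 117, 105 and 106 CPM (log2 −0.998, edgeR adjusted p = 0.232). Irgm1, a regulator of the immunity-related GTPases, had 107, 113 and 205 CPM and 75.8, 62.7 and 68.4 CPM (log2 −1.04, edgeR adjusted p = 0.115).

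The transcription factor gene Irf1 and the gene of the PD-1 ligand had the same order of tumors. Irf1 had 52.0, 41.1 and 104 CPM in untreated tumors 1, 2 and 4 and 25.1, 24.5 and 27.3 CPM in anti-PD-1 tumors 1, 2 and 3 (log2 −1.36 ± 0.33, SE, n = 3 per group, edgeR adjusted p = 0.133). Cd274, which encodes PD-L1, had 33, 30.1 and 64.8 CPM and 16.7, 15.5 and 16.9 CPM (log2 −1.38 ± 0.28, edgeR adjusted p = 0.0676). Neither passed the threshold, although their groups did not overlap. Irf3 and Irf7, which drive type I interferon production, had overlapping groups with log2 fold changes of 0.18 ± 0.16 and −0.48 ± 0.49 (edgeR adjusted p = 0.5 and 0.569). Ifng itself had 10, 0 and 14 counts in untreated and 0, 2 and 0 counts in anti-PD-1 tumors, and Ifnb1 had 0 counts in all 6, too few for a comparison.

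**Figure D2:**
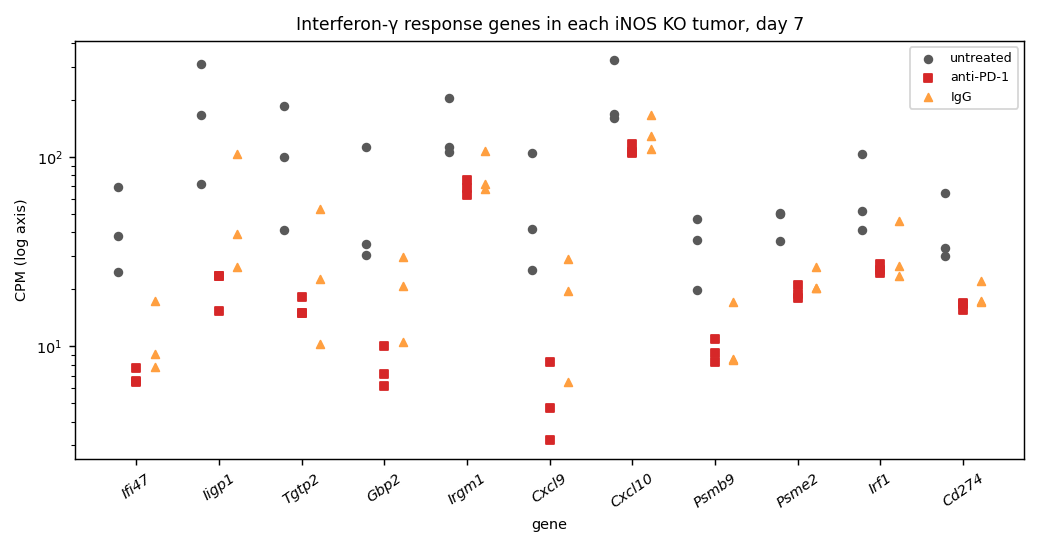
CPM (log axis) of 11 IFN-γ-inducible genes in each of the 9 iNOS KO tumors, with one point per tumor, in untreated (grey circles), anti-PD-1 (red squares) and IgG (orange triangles) groups of 3. In all 11 genes the anti-PD-1 tumors lie below the untreated ones, as in 8.46% of all genes tested, and in several of the 11 the IgG tumors overlap both. Some of the 11 were named for groups without overlap and others after their values were seen. The separation is therefore in part fixed by the choice of genes.

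Promoters of the IFN-γ response list were searched for the sequences bound by interferon-activated factors. The GAS element, which mediates responses to IFN-γ, was searched as TTCNNNGAA, and the ISRE, which IRF factors bind, as GAAANNGAAA, on both strands, within 250 bases before the RefSeq start in GRCm38.p6. A promoter was given for 20 of the 34 genes, in 22 entries. Of these, 12 held the ISRE letters (54.5%) and 8 the GAS letters (36.4%), against 2.98% and 7.02% of 32851 promoters of all genes. The list was made of genes known to respond to IFN-γ, so raised shares follow from its makeup. They are no evidence about the differences between these tumors. A match is a description of these letters and not a measured site. The windows below show matches of 6 genes of the list, 10 bases to each side, with the matched letters in capitals, from 5′ to 3′ on the gene's strand, so that a match on the other strand appears as its reverse complement. They are shown as examples from genes of the groups described above.
Irf1, GAS, chr11:53769914-53769942, plus strand: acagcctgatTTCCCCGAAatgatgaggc
Igtp, GAS, chr11:58199501-58199529, plus strand: aactagccatTTCTAGGAActgaaactga
Igtp, ISRE, chr11:58199512-58199541, plus strand: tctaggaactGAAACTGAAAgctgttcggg
Psmb8, GAS, chr17:34198088-34198116, plus strand: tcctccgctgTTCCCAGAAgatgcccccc
Tgtp2, GAS, chr11:49064275-49064303, minus strand: agctagccatTTCCAGGAAtcgaaaccga
Tgtp2, ISRE, chr11:49064263-49064292, minus strand: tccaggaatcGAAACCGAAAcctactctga
Gbp2, ISRE, chr3:142620594-142620623, plus strand: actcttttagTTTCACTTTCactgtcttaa
Cxcl10, ISRE, chr5:92349083-92349112, minus strand: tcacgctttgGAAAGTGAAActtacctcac
In the GTPase genes Igtp and Tgtp2 the windows of the GAS and the ISRE overlap. Their levels had the same order of tumors, with 52.6, 40.6 and 150 CPM of Igtp and 101, 40.9 and 186 CPM of Tgtp2 in untreated tumors 1, 2 and 4. In anti-PD-1 tumors 1, 2 and 3, Igtp had 14.4, 20.8 and 18.4 CPM and Tgtp2 had 15.1, 18.2 and 15.1 CPM (edgeR adjusted p = 0.0806 and 0.0572). Psmb8, a second immunoproteasome subunit, had 60.6, 43.1 and 78.9 CPM in untreated and 29.5, 23.2 and 26.7 CPM in anti-PD-1 tumors (edgeR adjusted p = 0.0817). Neither motif was in the windows of Ifi47, Psmb9, Cxcl9, Cd274 and Tap1, nor in the first of 2 entries for Psme2.

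Type I interferon-stimulated genes, which also respond in part to IFN-γ, were lower with a smaller median. Of 40 tested, 19 were lower and 0 higher at an unadjusted p under 0.05, against 14.4% lower and 2.91% higher over all genes, with a median log2 fold change of −0.55. By edgeR 0 passed the adjusted threshold, and DESeq2 called 11. Without untreated tumor 4, 11 were lower and the median was −0.35. Usp18, a negative regulator of interferon signalling, had 54.5, 48.2 and 58.3 CPM in untreated and 26.3, 31.2 and 33.8 CPM in anti-PD-1 tumors (log2 −0.82, edgeR adjusted p = 0.0552). Ifit1, an RNA-binding antiviral protein, had 57.6, 70.3 and 90.5 CPM and 31.7, 29.6 and 38.3 CPM (log2 −1.13, edgeR adjusted p = 0.0566). Bst2, the antiviral protein tetherin and the most abundant gene of the list, had 580, 440 and 762 CPM and 446, 377 and 377 CPM, with overlapping groups.

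Antigen presentation genes were lower in part. Of 15 MHC class I genes, 9 were lower and 0 higher at an unadjusted p under 0.05, against 14.4% lower over all genes, and the median log2 fold change was −0.91. By edgeR 0 passed the adjusted threshold, or 8 with no filter, and DESeq2 called 3. Without untreated tumor 4 the count of 9 was 4, and without anti-PD-1 tumor 2 it was 5. H2-T22, a nonclassical class I gene, had 71.2, 41.2 and 111 CPM in untreated and 25.4, 29.4 and 29.3 CPM in anti-PD-1 tumors (log2 −1.41, edgeR adjusted p = 0.0833), and Tapbpl, an editor of class I peptides, had a log2 fold change of −1.14 (edgeR adjusted p = 0.104). B2m, the light chain of class I, had 7844, 5141 and 9077 CPM and 2936, 2346 and 5414 CPM (log2 −1.04, edgeR adjusted p = 0.285), with anti-PD-1 tumor 3 above untreated tumor 2. Of 10 MHC class II genes 2 were lower, among them H2-DMb1, which helps to load class II peptides, with 26, 8.16 and 24.6 CPM and 5.64, 5.88 and 5.44 CPM (log2 −1.79, edgeR adjusted p = 0.227).

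Most transcripts of T cells and cytotoxic lymphocytes were scarce. Cd8a, a chain of the CD8 coreceptor, had 38, 46 and 38 counts in untreated tumors 1, 2 and 4 and 7, 10 and 7 counts in anti-PD-1 tumors 1, 2 and 3 (log2 −2.59, edgeR adjusted p = 0.283). Cd3e, a part of the T cell receptor complex, had 4.74, 1.93 and 3.19 CPM and 0.704, 0.560 and 1.84 CPM, and Cd4 had 4.70, 1.73 and 3.48 CPM and 0.939, 0.685 and 1.14 CPM. Ccl5, a chemokine of cytotoxic cells, had 7.88, 5.59 and 26.6 CPM and 3.00, 2.99 and 4.43 CPM (log2 −1.95, edgeR adjusted p = 0.14), and Gzma, a granule protease, had 3.68, 1.76 and 5.54 CPM and 0.391, 0.124 and 1.37 CPM (log2 −2.53, edgeR adjusted p = 0.271). The groups did not overlap for any of these 5 genes, and none passed the threshold. Over the lists they did not overlap for 9 of 25 T cell and 8 of 26 cytotoxic genes, against 8.46% lower over all genes. Tcf7, the most abundant of the T cell genes, averaged 46.7 CPM over the 6 tumors, with overlapping groups (log2 0.12, edgeR adjusted p = 0.564). The PD-1 gene itself, Pdcd1, had 20, 6 and 22 counts and 7, 0 and 0 counts. Of 25 T cell genes 9 were lower and 0 higher at an unadjusted p under 0.05 (median log2 −1.72), and of 26 cytotoxic genes 8 were lower and 0 higher (median log2 −2.26), against 14.4% lower over all genes. That share was 8.1% in genes of at least 1 CPM, and so above 14.4% in scarcer ones. Only 11 T cell and 4 cytotoxic genes averaged at least 1 CPM, and 6 and 2 of them were lower. The T cell count of 9 was 4 without untreated tumor 1, 6 without anti-PD-1 tumor 1 and 3 without anti-PD-1 tumor 2. With the receptor level as a covariate 1 T cell and 4 cytotoxic genes were lower. The T cell and cytotoxic medians were then −0.79 and −0.87, and without untreated tumor 1 they were −1.02 and −1.70, whereas the IFN-γ median was −1.85 and −1.78.

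Genes with short transcripts were lower in anti-PD-1 tumors than in untreated ones, and also in IgG tumors. In IgG against the same untreated tumors, the median log2 fold change was −0.43 in the shortest and 0.25 in the longest decile of transcript length. The deciles were of genes of at least 1 CPM. With anti-PD-1 the median log2 fold change went from −0.30 in the shortest (57 to 914 bases) to 0.19 in the longest decile (at least 5616 bases). In the shortest decile 23.6% of the genes were lower with anti-PD-1 and 0.972% higher at an unadjusted p under 0.05. Of the 13 genes called, 7 had a median transcript of at most 1000 bases, as did 11.7% of all genes of at least 1 CPM. Cytosolic ribosomal protein genes had 41 of 83 members lower (median log2 −0.56) and respiratory chain and ATP synthase genes 35 of 74 (−0.46). Mitochondrial ribosomal protein genes had 19 of 76 lower (−0.24) and proteasome genes 13 of 39 (−0.27). The share lower was 14.4% over all genes and 23.6% in the shortest decile, and mitochondrial ribosomal protein genes, at 25%, were near the latter. Their count was 36 without anti-PD-1 tumor 3 (median −0.41) and 11 without anti-PD-1 tumor 2 (−0.15). In IgG against untreated tumors, 53 of 83 cytosolic ribosomal protein genes were lower (−0.68). These 4 families were chosen after their values were seen. With the length trend taken out of each library, 16 genes were called, 11 of them among the 13, and the medians were −0.33, −0.27, −0.18 and −0.20, while that of the IFN-γ list was −1.73. Anti-PD-1 tumor 3 stood with the untreated tumors in the shortest decile, and ribosomal protein genes summed to 38592, 31805 and 30709 CPM in untreated tumors 1, 2 and 4 and to 21828, 19597 and 30193 CPM in anti-PD-1 tumors 1, 2 and 3. The part of RNA quality in this pattern was not tested.

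**Figure D3:**
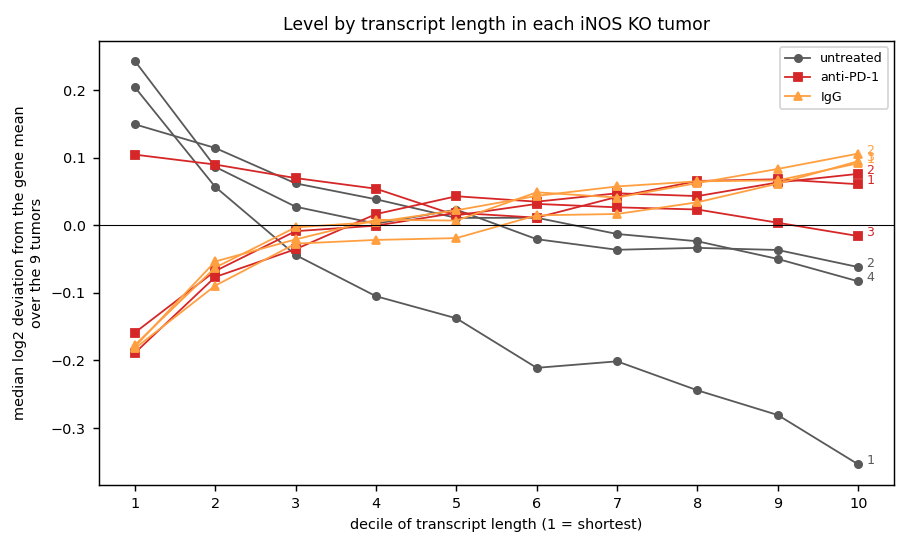
Median log2 deviation of each iNOS KO tumor from the gene mean over the 9 tumors, by decile of transcript length (1 is the shortest), for 15414 genes; each line is a tumor, with its number at the right. In the shortest decile the 3 untreated tumors and anti-PD-1 tumor 3 lie above 0 and the other 5 tumors below it, and in the longest decile untreated tumor 1 lies lowest.

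Antioxidant genes of the NRF2 list had a median near 0, and some short transcripts among them were lower. Prdx1, a peroxidase, had 450, 602 and 398 CPM in untreated and 246, 224 and 331 CPM in anti-PD-1 tumors (log2 −0.86, edgeR adjusted p = 0.134), and Txn1, thioredoxin, had 113, 184 and 109 CPM and 71.4, 66.6 and 90.1 CPM (log2 −0.83, edgeR adjusted p = 0.134). Over the 21 genes of the list the median was 0.05, with 4 lower and 1 higher at an unadjusted p under 0.05. Of 20 genes of nitric oxide and arginine metabolism, 2 were lower and 0 higher, a share under the 14.4% of all genes, and the median was 0.17, or −0.04 with the receptor level as a covariate and −0.01 without anti-PD-1 tumor 3. Pts, an enzyme that makes the iNOS cofactor tetrahydrobiopterin, had 27, 16.9 and 23.9 CPM and 11.7, 13.3 and 16.2 CPM (log2 −0.72, edgeR adjusted p = 0.227).

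By edgeR 0 genes were called higher, although 896 were higher at an unadjusted p under 0.05. DESeq2 called 70 higher, and edgeR called 59 higher with only these groups fitted and 190 with no filter on low counts. The 10 genes of at least 1 CPM with the smallest p among those without overlap were Baiap2, Nsmf, Praf2, Kifc1, Ppp1r14b, Msto1, Rcor2, Chsy1, Noc2l and Thbs3. Baiap2, an adaptor of the actin cytoskeleton, had 30.4, 32.2 and 28.3 CPM in untreated and 51.6, 53.2 and 39.5 CPM in anti-PD-1 tumors (log2 0.67 ± 0.15, SE, n = 3 per group, edgeR adjusted p = 0.0911). Nsmf had 14.1, 15.4 and 14.3 CPM and 25.7, 22.4 and 21.7 CPM (log2 0.67, edgeR adjusted p = 0.116). The log2 fold changes of the other 8 were 0.94 for Praf2, 0.79 for Kifc1 (a mitotic kinesin), 0.80 for Ppp1r14b, 0.58 for Msto1, 0.78 for Rcor2 (a corepressor subunit), 0.61 for Chsy1 (a chondroitin synthase), 0.69 for Noc2l and 1.18 for Thbs3 (a thrombospondin). These genes lay between 0.134 and 0.213 in adjusted p.

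Fibroblast and collagen genes were higher in 2 of the 3 anti-PD-1 tumors than in untreated ones, and also in IgG tumors. At an unadjusted p under 0.05, 15 of 26 were higher and 0 lower, against 2.91% higher over all genes, and the median log2 fold change was 1.26. All 26 averaged at least 1 CPM, and 5.63% of such genes were higher. By edgeR 0 passed the adjusted threshold, or 14 with only these groups fitted and 21 with no filter, and DESeq2 called 0. The count of 15 was 0 without anti-PD-1 tumor 1 (median 0.77), 5 without anti-PD-1 tumor 3, 4 without untreated tumor 1 and 6 without untreated tumor 2. Col1a1, the main chain of type I collagen, had 283, 372 and 413 CPM in untreated tumors 1, 2 and 4 and 1915, 415 and 1164 CPM in anti-PD-1 tumors 1, 2 and 3 (log2 1.71 ± 0.71, SE, n = 3 per group, edgeR adjusted p = 0.286). Anti-PD-1 tumor 2 lay just above untreated tumor 4, and the other anti-PD-1 tumors far above. Col5a1 had 57.9, 74.6 and 86.1 CPM and 285, 95.2 and 164 CPM, and Pdgfrb, a receptor of pericytes and fibroblasts, had 31.8, 37 and 39.3 CPM and 76.1, 50.8 and 56.9 CPM. In IgG against untreated KO tumors, 22 of 26 genes were higher at an unadjusted p under 0.05 (median log2 1.54). The list summed to 5326, 9150 and 8649 CPM in IgG tumors 1, 2 and 3 of KO mice. Untreated WT tumors 1, 2 and 3 had sums of 3390, 9571 and 6345 CPM. The sums were 2067, 2319 and 3014 CPM in untreated KO tumors and 9293, 2392 and 6357 CPM in anti-PD-1 KO tumors. The median for anti-PD-1 against untreated was 0.34 with the receptor level as a covariate. The macrophage gene Cd163 was also highest in anti-PD-1 tumors 1 and 3, with 9.31, 8.10 and 13 CPM in untreated and 39.7, 10.8 and 34.8 CPM in anti-PD-1 tumors. So was Thbs1, a matrix glycoprotein, with 27.5, 35 and 51.0 CPM and 98.5, 39.7 and 81.5 CPM. Fcgr4, an IgG receptor of myeloid cells, was at 27.9, 12.5 and 31.4 CPM and 8.69, 4.45 and 14.4 CPM. Of 28 macrophage genes 1 was lower and 2 were higher (median log2 0.06).

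The first 3 growth and stress lists below had medians between 0.22 and 0.51. Hypoxia and glycolysis genes had 4 of 30 higher and 1 lower (median log2 0.42), immediate early genes 4 of 22 higher and 0 lower (0.51), and proliferation genes 3 of 32 higher and 0 lower (0.22), against 2.91% higher over all genes. All members tested of these lists averaged at least 1 CPM, and 5.63% of such genes were higher. Without anti-PD-1 tumor 1 the counts higher were 1, 2 and 1, with an immediate early median of 0.17, and without untreated tumor 1 they were 1, 1 and 0. Ddit4, a stress-induced inhibitor of mTORC1, had 30.2, 31 and 37.6 CPM in untreated and 62.5, 43.7 and 54.4 CPM in anti-PD-1 tumors, and the glucose transporter gene Slc2a1 had 71.7, 87.2 and 107 CPM and 203, 105 and 166 CPM. The growth regulator Myc had 380, 478 and 544 CPM and 715, 652 and 631 CPM (log2 0.51, edgeR adjusted p = 0.286). Nr4a1 and Ier2, which respond early to stimuli, had log2 fold changes of 0.57 and 0.53, and Mcm2, a subunit of the replicative helicase, of 0.44, none past the threshold. Every anti-PD-1 tumor lay above every untreated one in 9 hypoxia, 5 immediate early and 15 proliferation genes, against 5.56% of all genes tested. With the receptor level as a covariate the 3 medians were 0.01, 0.10 and −0.09.

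Pigment and skin genes are given for the makeup of the pieces. Of 20 melanocyte genes 2 were lower at an unadjusted p under 0.05 (median log2 −0.11). This share of 10% lay near the 14.4% of all genes and the 8.1% of genes of at least 1 CPM. Tyr, the rate-limiting enzyme of melanin synthesis, had 464, 435 and 544 CPM in untreated and 310, 324 and 354 CPM in anti-PD-1 tumors (log2 −0.55, edgeR adjusted p = 0.281), and Slc24a5, an ion exchanger of melanosomes, a log2 fold change of −0.46. Keratinocyte and hair genes summed to 1406 CPM in untreated tumor 4 and to at most 55.1 CPM in the other 5 tumors. Of 34 tested, 22 were lower (median log2 −4.77), against 14.4% of all genes. Without untreated tumor 4 the count was 4 (median −2.24). Skeletal muscle genes summed to 344, 236 and 1234 CPM in untreated and 221, 1216 and 854 CPM in anti-PD-1 tumors. The part of attached skin or muscle in the other results was not tested. Monocyte chemokine Ccl7 had 11.2, 13.6 and 10.2 CPM and 6.26, 3.14 and 6.77 CPM (log2 −1.11, edgeR adjusted p = 0.259).

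The remaining lists are given by their counts at an unadjusted p under 0.05, beside 14.4% lower and 2.91% higher over all genes. Checkpoint genes had 2 of 16 lower and 1 higher (median log2 −0.56), B cell and plasma cell genes 5 of 20 lower (−1.54), neutrophil genes 3 of 15 lower (−0.74), dendritic cell genes 3 of 17 lower (−0.78) and CC chemokine genes 2 of 13 lower (−0.47). Without untreated tumor 1 the medians were −0.15 for B cell, −0.16 for neutrophil, −0.35 for dendritic cell and −0.25 for adipocyte genes, and the CC chemokine median was −0.12 without anti-PD-1 tumor 2. With the receptor level as a covariate the B cell median was 0.33 and the neutrophil median 0.21. Endothelial genes had 1 of 22 lower and 2 higher (0.32), complement and coagulation genes 3 of 20 higher (0.62, and 0.17 without anti-PD-1 tumor 1), and adipocyte genes 2 of 19 lower (−0.72). Interferons with their receptors and factors had 2 of 20 lower (−0.05), integrated stress response genes 1 of 24 lower (0.10), erythrocyte genes 2 of 10 lower (−0.12), mitochondrially encoded genes 2 of 13 lower (−0.28), and clock genes 1 of 17 lower and 1 higher (0.25). By edgeR 0 of these genes passed the adjusted threshold, while with no filter on low counts 8 complement and 3 endothelial genes did, among others, and DESeq2 called 1 dendritic cell gene.

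**Figure D4:**
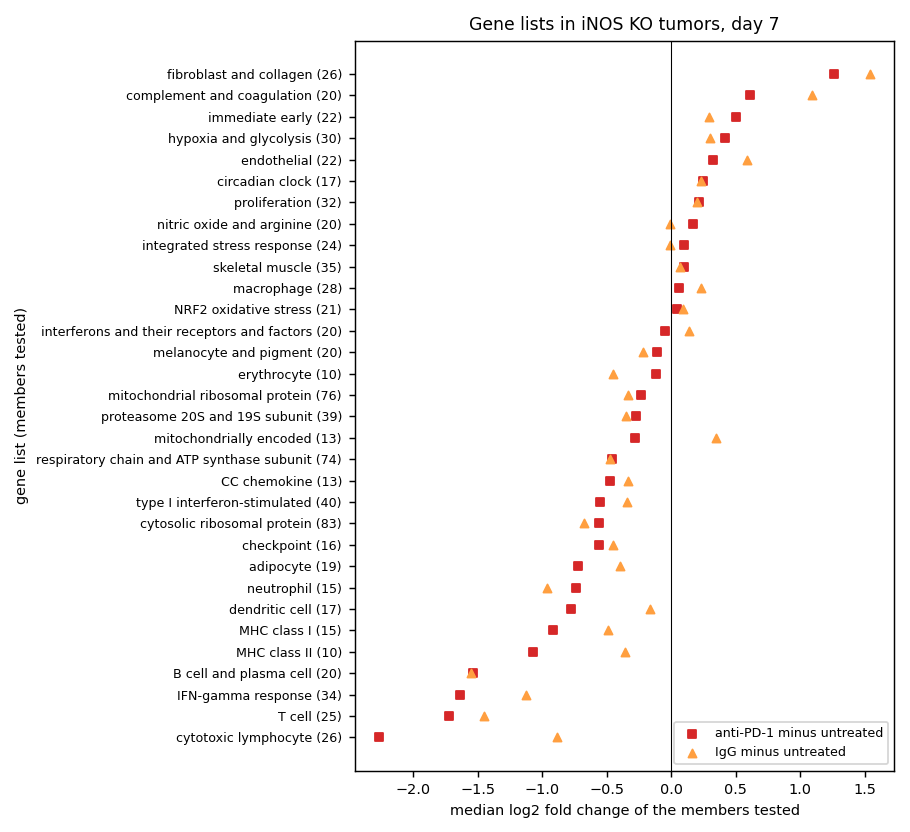
Median log2 fold change of the members tested (number in brackets) of 32 gene lists in iNOS KO tumors, for anti-PD-1 (red squares) and IgG (orange triangles) minus the same 3 untreated tumors. The IFN-γ list lies at −1.64 and −1.13 and the fibroblast and collagen list at 1.26 and 1.54; the keratinocyte and hair list, at −4.77 and −4.74, is not drawn.

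IgG-treated tumors of iNOS KO mice were compared to see which differences go with the antibody's target. Against the same untreated tumors, edgeR called 58 genes lower and 0 higher in IgG tumors (0.188% of the genes tested), and at an unadjusted p under 0.05 3907 were lower (12.7%) and 911 higher. DESeq2 called 46 higher, and edgeR called 318 higher with only these groups fitted and 373 with no filter. The count of 58 was 0 without any 1 of the IgG tumors. Ifi47 had 9.05, 7.75 and 17.3 CPM in IgG tumors 1, 2 and 3 (log2 −1.96 against untreated, edgeR adjusted p = 0.0354). The other 12 genes called with anti-PD-1 had log2 fold changes between −0.84 (Rnf7) and −1.62 (Rpl34) in IgG against untreated tumors, with edgeR adjusted p between 0.0101 and 0.0439. The IFN-γ list had a median of −1.13, with 22 of 34 genes lower. Anti-PD-1 and untreated, and IgG and untreated, share their controls, so the closeness of their values is no separate evidence. Directly between anti-PD-1 and IgG tumors, a comparison added after the data were seen, edgeR called 0 genes, or 78 with no filter on low counts, DESeq2 called 22, and 337 genes were lower in anti-PD-1 tumors (1.09%) and 262 higher at an unadjusted p under 0.05. The IFN-γ list had a median of −0.67 between them. Cxcl9 had 19.7, 6.48 and 28.9 CPM in IgG tumors and was 1.77 lower on the log2 scale in anti-PD-1 tumors (SE 0.59, edgeR adjusted p = 1). Iigp1 had 39.3, 26.2 and 104 CPM in IgG tumors, above all 3 anti-PD-1 tumors (edgeR adjusted p = 1). These tests do not show that anti-PD-1 and IgG act alike.

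The change with anti-PD-1 in iNOS KO tumors was compared with that in WT tumors. By edgeR the difference of the changes passed an adjusted p under 0.05 for 6919 genes (22.4%), 6039 of them more negative in KO. The count was 0 without KO anti-PD-1 tumor 1, WT untreated tumor 1 or WT untreated tumor 3, 146 without WT anti-PD-1 tumor 3, 53 without KO anti-PD-1 tumor 2 and 368 with only these groups fitted. It was 0 with the receptor level as a covariate, where the difference was −4.11 for Ifi47 and −2.66 for Irf1. The receptor level was 54.8, 2976 and 1235 CPM in the WT anti-PD-1 tumors 2, 3 and 4, so it moved with the treatment in the opposite direction from KO. Ifi47 was at 7.34, 6.98 and 8.53 CPM in WT untreated tumors 1, 2 and 3 and at 22.4, 15.7 and 9.42 CPM in WT anti-PD-1 tumors 2, 3 and 4. The change in KO minus that in WT was −3.74 on the log2 scale (SE 0.53, edgeR adjusted p = 0.0129). Irf1 was at 19.5, 27.7 and 23.2 CPM in WT untreated and 55.0, 30.4 and 29.3 CPM in WT anti-PD-1 tumors (log2 difference −2.06, edgeR adjusted p = 0.0244). Anti-PD-1 tumors of KO mice, at 24.5 to 27.3 CPM of Irf1, stood near the untreated tumors of WT mice, and the untreated KO tumors stood above both.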

How the data were processed

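Whole tumors were profiled by strand-specific RNA-seq. Per the labels and the study's methods, the authors trimmed reads with cutadapt (1.8.1), aligned them to mm10 with STAR (2.7.7a) and estimated counts per gene with RSEM (1.3.0) with the GENCODE vM21 annotation. In the deposited table the counts are whole numbers, for 55450 genes, all of which matched vM21; its name refers to another counter. Groups were taken from the sample titles; genotype, treatment and time fields conflict with them. Columns with no sample numbered 0.

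The 18 tumors of the day 7 experiment, between 11625862 and 40959309 counts, were fitted together with edgeR 4.0.16 (R 4.3.3) by the quasi-likelihood F-test, with TMM, 1 coefficient per group and filterByExpr at a minimum count of 10, leaving 30837 genes and 12 residual degrees of freedom. The SE of a log2 fold change is its absolute value divided by the square root of the F statistic. It therefore draws on the spread in all 18 tumors and not only in the groups compared. Benjamini-Hochberg adjustment covered every gene tested, with a threshold of 0.05. Nothing says that replicates came from separate cages or days, so p-values measure the spread between these tumors; the common coefficient of variation was 0.786. Within the KO groups no replicate was a copy of another (chi-square per gene 34.2 to 95.9). Scripts were tested on simulated data.

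Alternatives were DESeq2 1.42.0, its size factors, no filter, only the groups compared, a block by replicate number, receptor counts per kb of exon subtracted or used as a covariate, each tumor left out, and, added after seeing the data, the trend over transcript length removed. Named genes were Nos2, 9 genes of the study's question, up to 10 protein-coding genes per direction without overlap and at least 1 CPM (by fold if called, otherwise by p), and in each of 29 lists the 2 most abundant and the 2 with the smallest p, as far as space allowed. The members, lists and rules were chosen with earlier results of these data known. Promoter sequences came from RefSeq (GRCm38.p6).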

Additional observations from a re-analysis of the deposited data

Results flagged for a closer look

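The change with anti-PD-1 differed between iNOS KO and WT tumors for 47 of the genes named above (edgeR, adjusted p under 0.05). The test was of the difference itself, and 22.4% of all genes tested passed it. Many of the 47 were named for a small p of the change in KO, which is part of this difference. Their number is therefore no separate evidence. All 47 calls were lost without KO anti-PD-1 tumor 1, WT untreated tumor 1 or WT untreated tumor 3, where edgeR called 0 genes. In each, the value is the log2 change in KO minus that in WT. Among interferon-inducible and lymphocyte genes it was −3.74 for Ifi47, −5.60 for Cxcl9, −4.75 for Iigp1, −4.76 for Gbp2, −4.20 for Tgtp2, −3.08 for Igtp, −0.98 for Irgm1, −2.06 for Irf1, −1.37 for Cd274 and −1.08 for Ifit1. It was −2.70 for Psmb9, −1.58 for Psmb8, −1.72 for Psme2, −1.55 for H2-T22, −1.50 for Tapbpl and −2.24 for H2-DMb1. It was −2.84 for Ccl5, −3.67 for Gzma, −3.39 for Cd3e, −4.50 for Cd4 and −7.06 for Cd8a, the last from few counts. Among the other genes lower in KO it was −2.06 for Rpl34, −1.68 for Sptssa, −1.96 for Zfas1, −1.75 for Immp1l, −1.82 for Dnajc15, −1.59 for Ndufa7, −1.01 for Gtf2a2, −0.90 for Rnf7, −0.98 for Mzt1, −1.11 for Psma3, −0.90 for Prdx1, −1.15 for Txn1 and −0.95 for Pts. Among genes higher in KO it was 0.82 for Baiap2, 0.62 for Nsmf, 1.75 for Praf2, 0.97 for Kifc1, 1.03 for Ppp1r14b, 0.95 for Msto1, 1.05 for Rcor2, 1.05 for Chsy1, 1.07 for Noc2l, 0.90 for Mcm2, 0.94 for Myc, 1.3 for Pdgfrb and 1.98 for Thbs1. With the receptor level as a covariate none of these passed the threshold, the smallest adjusted p being 0.0872 for Cxcl9, at a difference of −6.70. The differences then were −4.11 for Ifi47, −5.95 for Gbp2 and −5.48 for Iigp1, but −0.38 for Immp1l, −0.07 for Pdgfrb and 0.17 for Myc. The receptor level was raised in untreated KO tumor 1 and in WT anti-PD-1 tumors 3 and 4, and its part in these differences was not tested.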

How the results depend on the processing

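Genes called between anti-PD-1 and untreated KO tumors numbered 13. They were 29 with DESeq2 size factors, 1454 with no filter (190 higher), 569 with only these groups fitted (59 higher), 741 with the DESeq2 Wald test (70 higher) and 2 with the receptor covariate, and between 0 and 114 with a tumor left out. With the replicate number as a block 1 gene remained. Same-numbered tumors did not deviate together (median r −0.03 over 36 pairs, of which KO anti-PD-1 and untreated tumors share 2), so the numbers were not taken as pairs. Background subtraction and the length trend gave 19 and 16. For IgG against untreated, 58 genes became 1363 with no filter, 906 with only these groups, 710 with DESeq2, 0 with the covariate, 6 without the length trend and 0 to 124 with a tumor left out. For the difference between KO and WT, 6919 genes became 10720 with no filter, 368 with only these groups, 1408 with the block, 567 with background subtracted, 0 with the covariate and 0 to 14116 with a tumor left out. For anti-PD-1 against IgG, 0 became 78 with no filter and 22 with DESeq2. The cause of these shifts was not tested. Of 938 log2 fold changes of 67 named genes under the alternatives, 937 kept their direction and 1 turned: Irf3, at −0.0157 with the covariate. Of 462 list medians 427 moved by less than the spread between tumors, and in 10 of 33 lists, all with medians between −1.54 and 0.32, the median changed sign under an alternative. Counting error limits genes under a few CPM, such as Ifng, Pdcd1 and Cd8a.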
